A study of Mus musculus with 8 samples.

Results

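A set of 7 aldo-keto reductase genes of the mouse, Akr1b3, Akr1b8, Akr1c12, Akr1c13, Akr1c14, Akr1c18 and Akr1e1, was followed through 8 bulk RNA-seq libraries of skin epithelium. They are 7 of the 23432 gene symbols counted in each library. The 7 were chosen by symbol at a time when results of these same libraries were known, so their levels and fold changes are given as a description and carry no test. The study asked what the skin epithelium loses without MOF, the enzyme that acetylates lysine 16 of histone H4, and without KANSL1, a subunit of one of the complexes in which MOF works. At E16.5, late in embryonic development, K14-H2BGFP+ epithelial cells of back skin were sorted by FACS for 2 control libraries and 2 MOF cKO libraries of the genotype MOFfl/fl/K14Cre. At P0.5, just after birth, epidermis separated from dermis after Dispase treatment was lysed directly for 2 control libraries and 2 Kansl1 cKO libraries. The Kansl1 cKO libraries were of the genotype Kansl1fl/fl/K14Cre, in which exon 3 of Kansl1 is removed. The Cre is driven by the Krt14 promoter, so in both lines the deletion reaches Krt14-expressing epithelium and its progeny and leaves other cells of the skin with the gene intact. The sorted cells of both E16.5 groups carried histone H2B fused to green fluorescent protein, the controls were littermates with at least 1 working copy of the gene, and the mice had a mixed C57Bl/6J and CD-1 background. The labels do not say how each library was drawn from animals. The 2 controls of each experiment differed in Xist (values below) and so did not come from the same animal, while for the 2 libraries of each cKO group the spread may be between animals or technical.

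Aldo-keto reductases are cytosolic enzymes that reduce aldehydes and ketones to alcohols with NADPH or NADH as the cofactor. The 1B subfamily holds aldose reductase, which makes sorbitol from glucose, and its relatives that take up lipid-derived aldehydes. The 1C subfamily holds hydroxysteroid dehydrogenases, which switch steroid hormones and prostaglandins between active and inactive forms, and the 1E subfamily reduces 1,5-anhydrofructose, a sugar derived from glycogen. Several family members in mammals are targets of NRF2, the transcription factor of the oxidative stress response, which is held down by KEAP1.

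Akr1e1 and Akr1c18, the members with the largest differences, lie on the same chromosome, in and beside a cluster of Akr1c genes. In mm10 and GENCODE M21, Akr1e1 runs from 4590750 to 4609174 on the minus strand of chromosome 13 and Akr1c18 from 4132615 to 4150654 on the same strand, with 440096 bp between them. Akr1c14 (4049011 to 4090688, plus strand), Akr1c13 (4191150 to 4205596, plus strand) and Akr1c12 (4268176 to 4279433, minus strand) lie in the same cluster. Akr1b3 (34302434 to 34317478, minus strand) and Akr1b8 (34354119 to 34368463, plus strand) are neighbours on chromosome 6. The 250 bases before the annotated start of the 3 members that were tested in both experiments are shown here because these 3 carry the differences described below. They come from RefSeq on GRCm38.p6, the assembly also called mm10, and are written 5′ to 3′ on the strand of the gene with each CpG in capitals.
Akr1e1, chr13:4609165-4609414, minus strand: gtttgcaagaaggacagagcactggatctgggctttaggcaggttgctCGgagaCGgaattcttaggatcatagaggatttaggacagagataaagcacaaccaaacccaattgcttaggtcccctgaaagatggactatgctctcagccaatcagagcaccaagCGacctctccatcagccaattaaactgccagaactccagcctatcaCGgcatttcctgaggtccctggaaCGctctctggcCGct
Akr1c18, chr13:4150647-4150896, minus strand: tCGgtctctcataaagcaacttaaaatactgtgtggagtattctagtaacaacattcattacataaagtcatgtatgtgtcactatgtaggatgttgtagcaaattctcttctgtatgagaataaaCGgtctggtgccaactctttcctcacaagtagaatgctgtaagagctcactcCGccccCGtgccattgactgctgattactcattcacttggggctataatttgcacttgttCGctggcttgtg
Akr1b8, chr6:34353896-34354145, plus strand: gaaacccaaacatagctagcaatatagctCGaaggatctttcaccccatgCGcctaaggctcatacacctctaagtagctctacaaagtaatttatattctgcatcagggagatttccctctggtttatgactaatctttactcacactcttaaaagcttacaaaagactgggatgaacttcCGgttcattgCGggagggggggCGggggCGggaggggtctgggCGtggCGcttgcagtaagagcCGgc

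The Akr1e1 promoter held 6 CpGs and 50.8% G and C. The Akr1c18 promoter held 5 CpGs and 41.6% G and C, and the Akr1b8 promoter 9 CpGs and 49.6%. Over the 32851 promoters of the same length the median was 6 CpGs, with quartiles of 2 and 16, and 52.4% G and C, so all 3 members lay between the quartiles in CpG count. The antioxidant response element, the letters TGACNNNGC that NRF2 can bind, was searched on both strands from 250 bases before to 50 bases after the start. It was found in none of the 6 members' promoters that had an entry and in 12.4% of all promoters. No entry was given for Akr1b3.

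The libraries differed in ways that bear on the values. They held between 22484018 and 27561688 counts on genes at E16.5 and between 9108709 and 19774643 at P0.5, so that 1 count stood for 0.0326 to 0.0502 CPM and 0.0484 to 0.115 CPM, where CPM is the count scaled to a common library size with TMM factors. Stage, isolation and sequencer changed together between the experiments, so that their parts in any difference between E16.5 and P0.5 cannot be told apart, and each experiment was fitted alone. The targeted genes checked the labels weakly, since whole-gene counts include transcripts without the deleted part: Kat8, which encodes MOF, was at 14.4 and 14.7 CPM in E16.5 control and 12.4 and 13.9 CPM in MOF cKO (log2 fold change -0.14 ± 0.179), and Kansl1 at 40.7 and 48.2 CPM in P0.5 control and 31.4 and 30.6 CPM in Kansl1 cKO (-0.52 ± 0.167). Keratinocyte markers were high in every library (10 of 10 detected, summed level 36922 to 84162 CPM). The sexes were not balanced: Xist was at 1518 CPM in E16.5 control replicate 1 and at no more than 11.997 CPM in the other E16.5 libraries, and at 1.23 CPM in P0.5 control replicate 2 against 371 to 427 CPM in the other P0.5 libraries. Skeletal muscle markers summed to 326 CPM in P0.5 control replicate 1 and to 5.06 to 8.53 CPM in the other P0.5 libraries.

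Akr1e1, the 1,5-anhydrofructose reductase, was lower in both cKO lines. At E16.5 it had 95 and 110 counts in the controls and 7 and 26 in MOF cKO, or 3.10 and 3.97 CPM against 0.35 and 1.10 CPM. Both MOF cKO libraries thus lay below both controls, and the means were 3.53 ± 0.617 CPM and 0.726 ± 0.530 CPM (SD, n = 2 each). The fitted log2 fold change, cKO over control, was -2.26 ± 0.636 (standard error). At P0.5 it had 117 and 170 counts in the controls and 9 and 28 in Kansl1 cKO, or 13.4 and 11.0 CPM against 0.436 and 2.21 CPM. Again neither cKO library reached the lower control, and the means were 12.2 ± 1.71 CPM and 1.32 ± 1.26 CPM (SD, n = 2 each). The log2 fold change was -3.31 ± 0.619. In each line 1 of the cKO libraries carried most of what was left, and it was replicate 2 both times. Without MOF cKO replicate 2 the log2 fold change became -3.31, without MOF cKO replicate 1 it became -1.68, and the corresponding values at P0.5 were -4.77 and -2.49. Leaving out P0.5 control replicate 1 or 2 gave -3.17 and -3.49, and leaving out E16.5 control replicate 1 or 2 gave -2.43 and -2.07.

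Akr1c18, the 20-alpha-hydroxysteroid dehydrogenase that inactivates progesterone, was higher in both cKO lines. It was near the limit of detection at E16.5, with 9 and 10 counts in the controls and 21 and 28 in MOF cKO, or 0.294 and 0.361 CPM against 1.05 and 1.19 CPM. The 2 genotypes did not overlap, and the log2 fold change was 1.76 ± 0.733. At P0.5 the counts were 22 and 15 in the controls and 606 and 171 in Kansl1 cKO. These corresponded to 2.52 and 0.970 CPM against 29.4 and 13.5 CPM, with means of 1.75 ± 1.10 CPM and 21.4 ± 11.2 CPM (SD, n = 2 each). The lower Kansl1 cKO library was still above the higher control, although the 2 cKO libraries themselves were far apart, and the log2 fold change was 3.73 ± 0.545. It was 2.98 without Kansl1 cKO replicate 1, 4.47 without P0.5 control replicate 1, the library with the muscle markers, and 3.06 without P0.5 control replicate 2, the library that differed in Xist.

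Akr1b8, an aldose reductase relative that reduces lipid aldehydes, was higher in MOF cKO and lower in Kansl1 cKO. It had 143 and 94 counts in E16.5 control and 172 and 244 in MOF cKO, or 4.66 and 3.39 CPM against 8.63 and 10.3 CPM. The MOF cKO libraries lay above both controls, with means of 4.03 ± 0.898 CPM and 9.48 ± 1.201 CPM (SD, n = 2 each), and the log2 fold change was 1.23 ± 0.295. At P0.5 the counts were 14 and 83 in the controls and 16 and 7 in Kansl1 cKO, or 1.60 and 5.37 CPM against 0.775 and 0.553 CPM. Here the Kansl1 cKO libraries lay below both controls, and the log2 fold change was -2.39 ± 0.649. The size at P0.5 rested on control replicate 2, without which the log2 fold change was -1.26, against -2.96 without control replicate 1. Whether the effects of the 2 deletions on Akr1b8 differ was not tested, because the lines were sampled at different stages and isolated differently.

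**Figure D1:**
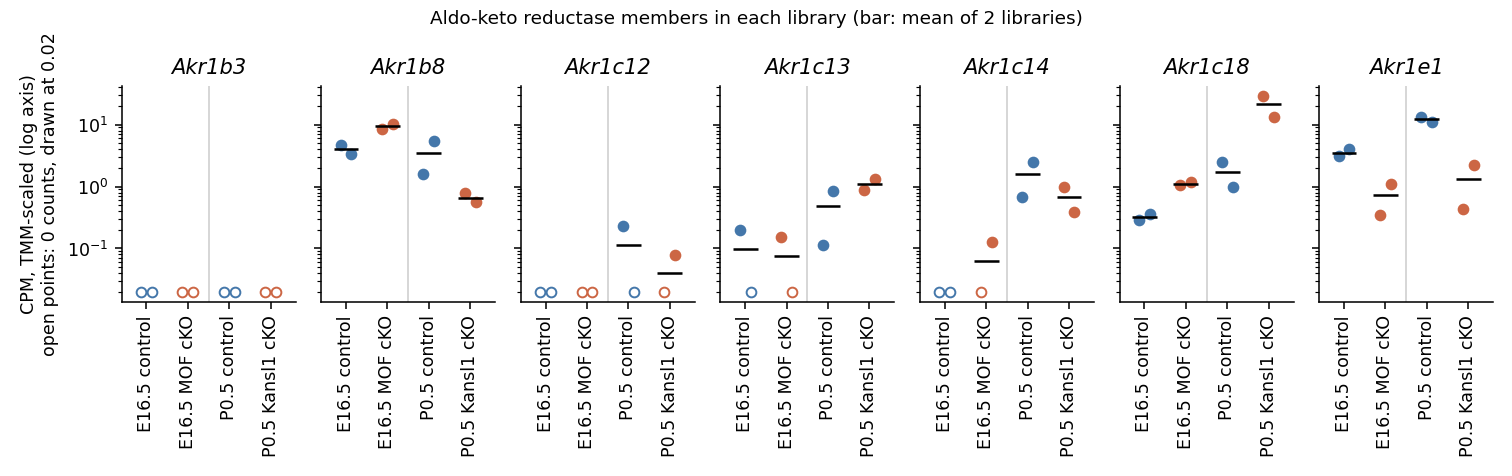
Level of each of the 7 members in each of the 8 libraries, in TMM-scaled CPM on a log axis, with control in blue, cKO in orange and a bar for the mean of 2 libraries. Open points mark libraries with 0 counts and are drawn at 0.02 CPM. In both experiments the cKO points lie below the controls for Akr1e1 and above them for Akr1c18, while Akr1b8 is higher in MOF cKO and lower in Kansl1 cKO.

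Akr1c14, the 3-alpha-hydroxysteroid dehydrogenase, was hardly seen at E16.5, with 0, 0, 0 and 3 counts in control replicates 1 and 2 and MOF cKO replicates 1 and 2. At P0.5 it had 6 and 38 counts in the controls and 20 and 5 in Kansl1 cKO, or 0.687 and 2.46 CPM against 0.969 and 0.395 CPM. The 2 genotypes overlapped. The log2 fold change of -1.21 ± 0.710 turned to 0.03 without P0.5 control replicate 2, so no direction can be given.

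Akr1c13, a hydroxysteroid dehydrogenase closely related to Akr1c12, had 6 and 0 counts in E16.5 control and 3 and 0 in MOF cKO. At P0.5 it had 1 and 13 counts in the controls and 18 and 17 in Kansl1 cKO, or 0.115 and 0.840 CPM against 0.872 and 1.34 CPM. The Kansl1 cKO libraries lay just above both controls, the log2 fold change was 0.99 ± 0.743, and it ranged from 0.36 without control replicate 1 of P0.5 to 3.12 without control replicate 2. Akr1c12 had 0 counts at E16.5 and 2, 0, 0 and 1 at P0.5, so no fold change is given.

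The coding sequences of Akr1c12 and Akr1c13 differ at 37 of 972 positions (96.2% identity), the closest pair among the members. Bases 343 to 402 of both, where the difference is densest, are shown because reads across such differences can be placed on 1 of the pair. The 9 mismatched bases are in capitals, and the sequences are from the GENCODE M21 transcripts.
Akr1c12: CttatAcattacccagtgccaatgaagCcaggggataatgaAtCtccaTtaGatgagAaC
Akr1c13: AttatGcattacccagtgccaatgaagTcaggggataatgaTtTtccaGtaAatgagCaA
Of the stretches of 150 bases, the read length, in the longest coding transcript, 7.10% were identical in the other gene. A read that lies within these stretches can be placed on 1 gene of the pair only through its mate, which was not considered here.

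Akr1b3, the mouse aldose reductase, was listed at 0 counts in all 8 libraries. Of the stretches of 150 bases in its transcript, 62.6% also occur in annotated transcripts of Gm12138, Gm38056, Gm6644 or Gm6736, which are annotated as separate genes. The deposited files set reads with several places apart from the genes, and these were 8.57% to 15.4% of each library. The annotation behind the counts is not given in the sources used here, so reads placed elsewhere, a difference in how the gene was named or annotated, and a low level cannot be told apart, and no bound on the level of Akr1b3 is given. The share of such stretches was 2.80% for Akr1c14, with the overlapping gene Gm18857, and 0% for Akr1b8, Akr1c18 and Akr1e1.

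Compared per kilobase of annotated exon, the order of the members changed between the groups. In E16.5 control the order was Akr1b8 at 2.69 CPM per kb, Akr1e1 at 0.971, Akr1c18 at 0.271 and Akr1c13 at 0.0682, and none of these neighbours overlapped between libraries. In MOF cKO it was Akr1b8 at 6.33 CPM per kb, Akr1c18 at 0.928, Akr1e1 at 0.200 and Akr1c13 at 0.0525, of which only Akr1e1 and Akr1c13 overlapped. In P0.5 control Akr1e1 led at 3.35 CPM per kb, ahead of Akr1b8 at 2.32 and Akr1c18 at 1.45, but Akr1e1 (3.02 and 3.68) overlapped Akr1b8 (1.07 and 3.58), which in turn overlapped Akr1c18 (0.803 and 2.09). Akr1c14 at 0.485 and Akr1c13 at 0.333 CPM per kb followed and overlapped each other. In Kansl1 cKO Akr1c18 stood above all other members, at 17.8 CPM per kb, followed by Akr1c13 at 0.773, Akr1b8 at 0.443, Akr1e1 at 0.364 and Akr1c14 at 0.211, and Akr1e1 overlapped both Akr1b8 and Akr1c14.

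The ratio of Akr1c18 to Akr1e1 can be read within each library, where depth and scaling cancel. The counts are not corrected for length, with 1207 annotated exon bases for Akr1c18 and 3640 for Akr1e1. Counts on Akr1c18 were 0.0947 and 0.0909 times those on Akr1e1 in E16.5 control, and 3.0 and 1.08 times in MOF cKO. They were 0.188 and 0.0882 times in P0.5 control, and 67.3 and 6.11 times in Kansl1 cKO. Akr1e1 thus had more counts than Akr1c18 in all 4 control libraries and fewer in all 4 cKO libraries, and the same held per kilobase. In MOF cKO replicate 2 the counts were close, at 28 on Akr1c18 and 26 on Akr1e1. The 2 genes were picked with results of these libraries known, so nothing is read from this change of order.

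Read against all genes, the members were not called by edgeR's quasi-likelihood test at the thresholds used, an adjusted p under 0.01 with a fold change over 1.5. In MOF cKO 3 of the 7 members passed the filter on low counts, and 0 were called up and 0 down, where 10.0% of the 13956 genes tested were called up and 9.59% down. With MOF cKO replicate 2 left out, edgeR called Akr1e1 down, among 1293 genes called up and 1332 down of 14338. The MOF cKO library that is left is then assumed to vary as the controls do. DESeq2 called Akr1b8 up and Akr1e1 down from the same counts, where it called 10.1% of genes up and 9.80% down. The libraries of the 2 genotypes did not overlap for 2 members higher and 1 lower in MOF cKO, as for 34.9% and 37.7% of all genes. In Kansl1 cKO 5 members passed the filter and again 0 were called in either direction by edgeR, where 0% of the 13031 genes tested were called up and 0% down, the smallest adjusted p over all genes was 0.110, and 2045 genes had an unadjusted p under 0.05. With either Kansl1 cKO library left out, edgeR called Akr1c18 up and Akr1e1 down, among 22 genes up and 64 down of 13433 without replicate 1 and 76 up and 197 down of 13574 without replicate 2. The spread in these fits comes from the 2 controls alone. DESeq2 called the same pair in the same directions, where it called 0.202% of genes up and 0.317% down. The genotypes did not overlap for Akr1c18 and Akr1c13, higher in Kansl1 cKO, and for Akr1e1 and Akr1b8, lower, as for 26.0% and 22.7% of all genes. Nothing is read from these counts, since the members were picked with the same comparisons in view, and a gene that passed the filter through 1 high group had to differ.

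**Figure D2:**
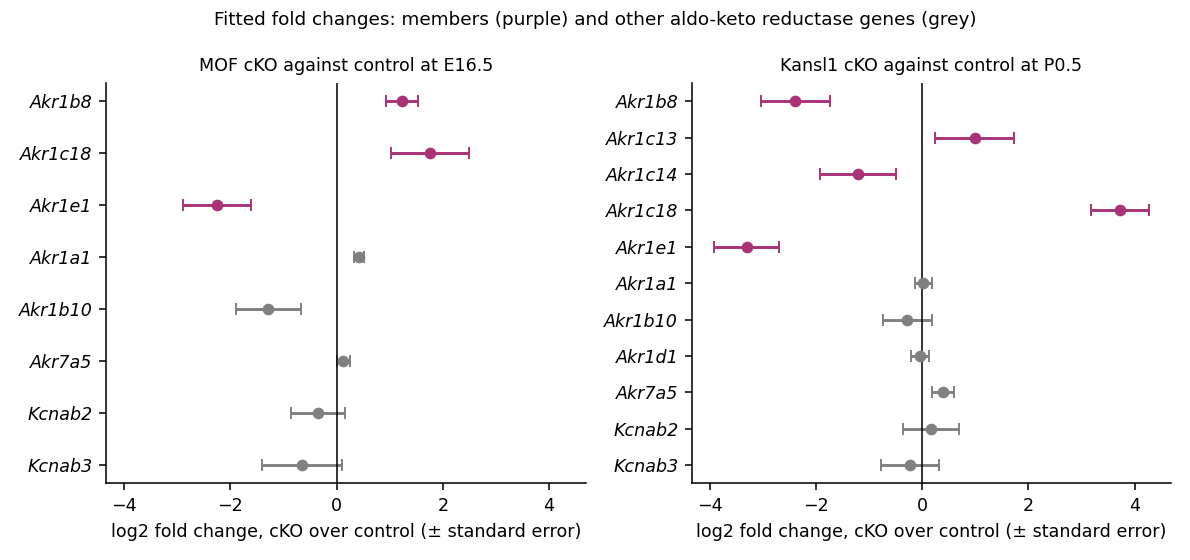
Fitted log2 fold change of cKO over control (points) with its standard error (bars) for members that passed the filter (purple) and other aldo-keto reductase genes (grey), for MOF at E16.5 on the left and Kansl1 at P0.5 on the right. Akr1e1 lies at -2.26 and -3.31 and Akr1c18 at 1.76 and 3.73, while Akr1a1 lies at 0.41 and 0.02.

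Of 14 other family symbols listed by function, 13 had a row. Of these 13, 5 were tested at E16.5 and 6 at P0.5, and edgeR called 0 of them in either experiment, as did DESeq2. The shares over all genes are those given above, and with edgeR at P0.5 that share was itself 0%. At an unadjusted p under 0.05 there was 1 of them at E16.5, Akr1a1, and 0 at P0.5. Over all genes there were 6820 of 13956 at E16.5 and 2045 of 13031 at P0.5. Akr1a1, the general aldehyde reductase that also serves vitamin C synthesis in mice, held between 79.3% and 90.0% of the counts on Akr genes in each library, uncorrected for length and with Akr1b3 taken at 0. Its means in the E16.5 libraries were 379 ± 7.51 CPM without the deletion and 505 ± 8.23 CPM with it (SD, n = 2 each; log2 fold change 0.41 ± 0.0969, adjusted p = 0.0138, edgeR's quasi-likelihood test), and scaled by library size alone the log2 fold change was 0.11 (adjusted p = 0.387, same test). At P0.5 they were 366 ± 10.9 and 370 ± 2.60 CPM in control and Kansl1 cKO (log2 fold change 0.02 ± 0.159). Akr1b10, whose coding sequence is 85.1% identical to that of Akr1b8, had 70 and 44 counts in E16.5 control and 12 and 23 in MOF cKO. Its log2 fold change of -1.29 ± 0.618 pointed the other way from that of its neighbour Akr1b8, but did not pass the test (adjusted p = 0.138, edgeR's quasi-likelihood test).

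Akr1d1, the steroid 5-beta-reductase, was the family gene with the widest gap between the experiments. It had 1, 0, 8 and 2 counts at E16.5 and 400, 603, 798 and 550 at P0.5, where control (42.4 ± 4.84 CPM) and Kansl1 cKO (41.1 ± 3.41 CPM, SD, n = 2 each) differed by -0.05 ± 0.169 on the log2 scale. Akr7a5, a reductase of succinic semialdehyde and aflatoxin dialdehyde, differed by 0.12 ± 0.123 in MOF cKO (-0.19 when scaled by library size alone) and 0.39 ± 0.207 in Kansl1 cKO on the log2 scale. Kcnab2 and Kcnab3, beta subunits of voltage-gated potassium channels built on the same fold, had log2 fold changes of -0.35 ± 0.507 and -0.65 ± 0.755 in MOF cKO and 0.17 ± 0.528 and -0.23 ± 0.548 in Kansl1 cKO. Akr1b7 had 0, 0, 1 and 1 counts at P0.5 and 0 at E16.5, and Kcnab1 at most 2 counts in any library. Akr1c6, Akr1c19, Akr1c20, Akr1c21 and Akr1cl had 0 counts in all 8 libraries, and the symbol Akr1a4 had no row and was not analysed here.

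Within 500 kb of Akr1c18 or Akr1e1, 5 genes outside the family were tested in both experiments. At E16.5 edgeR called 0 of them, where 10.0% of all genes were called up and 9.59% down, and at P0.5 0, as for all genes. The log2 fold changes of these 5, between -0.74 and 0.70, were smaller in size than those of Akr1c18 and Akr1e1 in the same comparison. Akr1c18 and Akr1e1 were picked with results of these libraries known, so nothing about the locus is read from this difference. Net1, a guanine nucleotide exchange factor and the nearest of the 5 to Akr1c18, differed by -0.33 ± 0.113 in MOF cKO and 0.19 ± 0.175 in Kansl1 cKO on the log2 scale. The calmodulin-like genes Calml3, Calm4 and Calm5, which are made in differentiating keratinocytes, differed by -0.74, 0.39 and 0.01 in MOF cKO and by -0.01, -0.10 and 0.70 in Kansl1 cKO. Asb13 differed by -0.66 in MOF cKO (adjusted p = 0.0488, edgeR's quasi-likelihood test, so not called) and by -0.16 in Kansl1 cKO. The family genes between Akr1c18 and Akr1e1 are Akr1c13, Akr1c12 and 4 with 0 counts, Akr1c19, Akr1c6, Akr1c20 and Akr1c21. Marcksl1-ps4, outside the family, also lies there and had 0 counts in every library. Akr1c21 lies 4209 bp from Akr1e1.

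**Figure D3:**
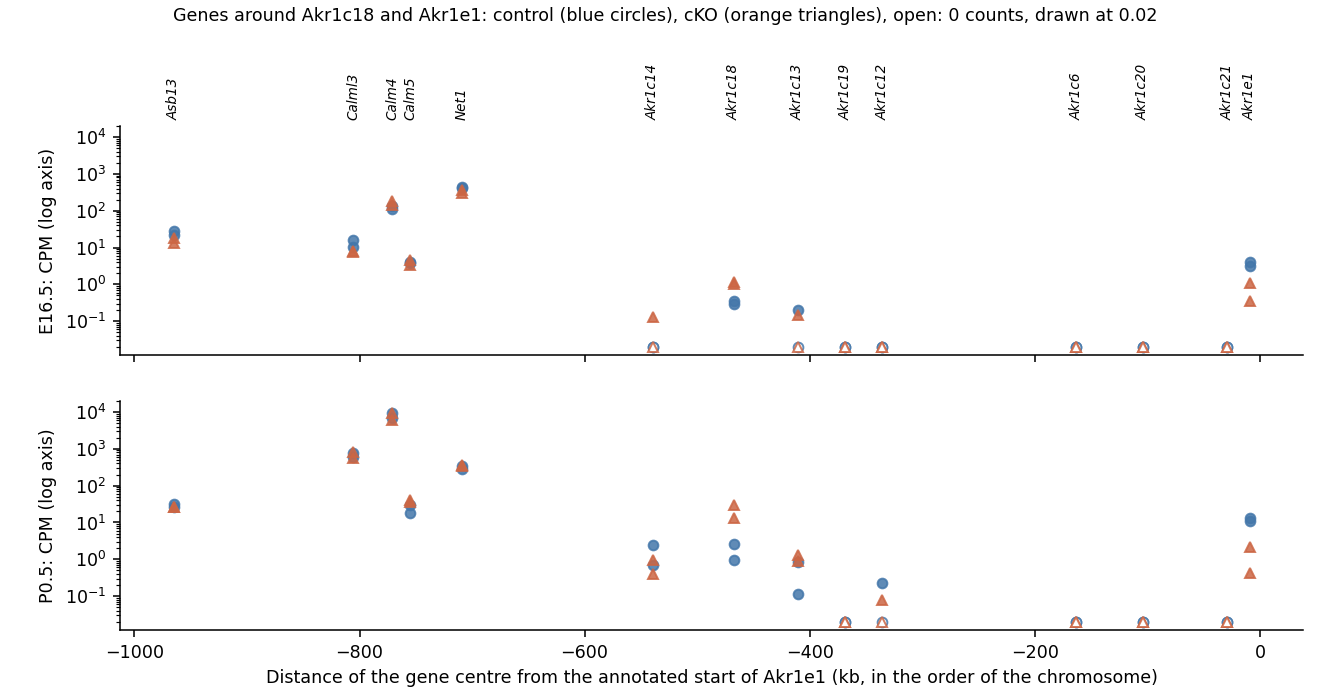
Level (CPM, log axis) of family genes and tested neighbours in each E16.5 library (top) and P0.5 library (bottom) against the distance of the gene's centre from the annotated start of Akr1e1, in kb. Control libraries are blue circles, cKO libraries orange triangles, and open symbols at 0.02 stand for 0 counts. The genotypes part at Akr1c18, Akr1e1 and Net1 in both experiments. They also part at Asb13, Calml3 and Calm4 at E16.5 and at Akr1c13 and Calm5 at P0.5. Net1, 672530 bp from Akr1e1 at its nearest end, has log2 fold changes of -0.33 and 0.19.

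For the 3 members tested in both experiments, the genes with the most similar pattern were sought among 12529 genes by Pearson's r of log2 CPM over the 8 libraries, after removing each experiment's mean. The libraries of an experiment share their scaling and the genotype difference, so these values are descriptions. Closest to Akr1e1 were Psmd13, a proteasome subunit (r = 0.997), and Atp2c2, a Golgi calcium pump (r = 0.983). Psmd13 followed the order of Akr1e1 over the libraries on a much smaller scale, at 97.4 and 102 CPM in E16.5 control, 69.7 and 80.6 in MOF cKO, 122 and 117 in P0.5 control and 74.3 and 94.2 in Kansl1 cKO. Closest to Akr1c18 were Syndig1, a synaptic membrane protein gene (r = 0.985), and P4ha1, a collagen prolyl hydroxylase (r = 0.975). Syndig1 was also close in size, with 1.40 and 1.19 CPM in E16.5 control against 2.81 and 3.05 in MOF cKO, and 0.458 and 0.259 CPM in P0.5 control against 3.68 and 2.85 in Kansl1 cKO, and log2 fold changes of 1.17 ± 0.484 and 3.25 ± 0.520. Closest to Akr1b8 were Scamp3, a carrier protein of the endosome (r = 0.995), and Pip4k2c, a phosphoinositide kinase (r = 0.975), whose log2 fold changes stayed between -0.46 and 0.28.

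Of the genes that NRF2 drives alongside aldo-keto reductases, a part passed the test in MOF cKO. Nfe2l2, which encodes NRF2, rose from 41.6 and 39.7 CPM in E16.5 control to 93.2 and 84.5 CPM in MOF cKO (log2 fold change 1.13 ± 0.118, adjusted p = 0.000763, edgeR's quasi-likelihood test), and Keap1 differed by -0.11 ± 0.113. Of 25 NRF2 target genes outside the family, listed by function, all 25 were tested. With the same test 8 were called up, 3 were called down and 14 were not called, where 10.0% of all genes were called up and 9.59% down. The median log2 fold change of the 25 was 0.41 against -0.02 over all genes. The 4 largest changes were rises. Slc7a11, the cystine importer, went from 1.76 and 0.903 CPM to 34.1 and 20.0 CPM (log2 fold change 4.33 ± 0.392, adjusted p = 0.000542, edgeR's quasi-likelihood test). Gpx2, a glutathione peroxidase, Srxn1, a sulfiredoxin, and Hmox1, the inducible heme oxygenase, rose by 3.21, 2.96 and 2.11 on the log2 scale. The 3 targets called down were Abcc4 (-1.52), Ugdh (-1.19) and Taldo1 (-1.01). In all, 18 of the 25 had a positive and 7 a negative log2 fold change. Among the members, Akr1b8 (1.23) and Akr1c18 (1.76) lay on the side of the rises and Akr1e1 (-2.26) on the side of the falls. The members were picked with results of these libraries known, so nothing about NRF2 is read from their directions. Nqo1, a quinone reductase and classical NRF2 target, was at 4.40 and 5.13 CPM without the deletion and 10.7 and 4.91 CPM with it, with overlap between genotypes (log2 fold change 0.71 ± 0.401, adjusted p = 0.200).

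Macrophage markers rose in the same sorted libraries. These markers, of which 11 of 12 had a row, summed to 21.8 and 46.7 CPM in E16.5 control and 105 and 138 CPM in MOF cKO. Of the 11, 7 were called up by edgeR's quasi-likelihood test and 9 by DESeq2, and Tyrobp was at 0 in control replicate 2. Over all genes edgeR called 10.0% up and 9.59% down, and DESeq2 10.1% and 9.80%. Endothelial markers summed to 6.75 and 7.40 CPM against 14.4 and 25.6 CPM, with 1 of 6 called up by edgeR and 2 by DESeq2. Fibroblast markers summed to 918 and 1556 CPM against 1548 and 2157 CPM, with 0 of 8 called by edgeR and 2 called up by DESeq2. The median log2 fold change of these 8 was 1.07 against -0.02 over all genes. Without overlap between genotypes, 7 of the 8 were higher in MOF cKO and 1 was lower, beside 34.9% and 37.7% of all genes. The part of these cells in the values of Akr1b8, Akr1c18 and the NRF2 target genes was not tested. In bulk RNA fewer cells of a type and less RNA per cell cannot be told apart.

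In Kansl1 cKO 0 of the 24 genes of the NRF2 list that were tested were called by edgeR or by DESeq2. Over all genes edgeR called 0% and DESeq2 0.202% up and 0.317% down, so nothing particular to the list is read from this count. Of the 24, 5 had an unadjusted p under 0.05, as did 2045 of the 13031 genes tested. The median log2 fold change of the 24 was 0.08 against 0.01 over all genes. Nfe2l2 was at 23.5 and 33.1 CPM in P0.5 control and 39.2 and 39.8 CPM in Kansl1 cKO (log2 fold change 0.48 ± 0.204, adjusted p = 0.327, edgeR's quasi-likelihood test). Slc7a11 varied between the controls, at 56.8 and 13.6 CPM, more than it did between genotypes, with 44.8 and 50.8 CPM in Kansl1 cKO. In the P0.5 libraries melanocyte markers summed to 474 and 532 CPM in control and 1027 and 1143 CPM in Kansl1 cKO (7 of 7 detected in every library, 0 called by edgeR, 4 called up by DESeq2), fibroblast markers to 1762 and 1096 CPM against 927 and 741 CPM (8 of 8 detected, 0 called by edgeR, 4 called down by DESeq2), and macrophage markers to 176 and 212 CPM against 265 and 288 CPM (0 of 11 called by either tool). The part of these cells in the differences of Akr1c18, Akr1c13, Akr1b8 and Akr1e1 was not tested.

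**Figure D4:**
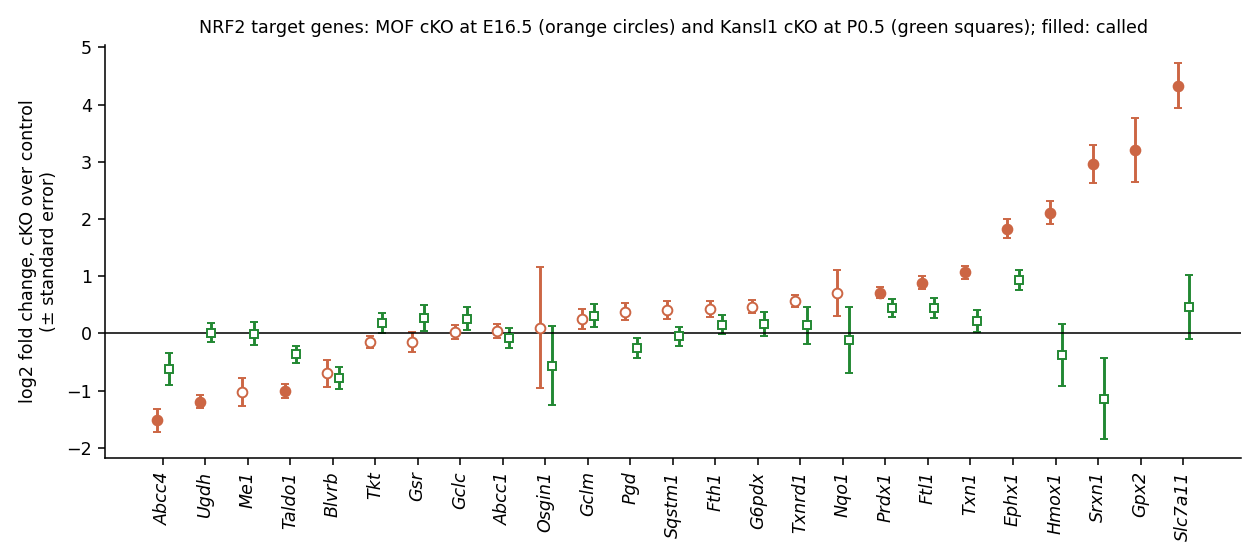
Log2 fold change of cKO over control, with its standard error, of the NRF2 target genes tested, ordered by the value in MOF cKO, with MOF cKO at E16.5 as orange circles and Kansl1 cKO at P0.5 as green squares. Filled symbols were called by edgeR: 8 up and 3 down in MOF cKO, led by Slc7a11 at 4.33, and 0 in Kansl1 cKO, where edgeR called 0 of all 13031 genes tested.

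Enzymes that share substrates with the members were read from lists set by function. Of 29 other aldehyde and carbonyl enzymes tested in MOF cKO, 2 were called up and 5 down by edgeR's quasi-likelihood test (median log2 fold change -0.21). Over all genes 10.0% were called up and 9.59% down. Aldh1l1, which oxidises formyl-tetrahydrofolate, and Adh1, an alcohol and retinol dehydrogenase, fell by 2.04 and 1.88 on the log2 scale, while Sdr16c5, a retinol dehydrogenase, and Dcxr, a carbonyl and xylulose reductase, rose by 1.81 and 1.43. Of 15 prostaglandin genes tested, which bear on the 20-alpha and prostaglandin F activities of Akr1c18, 3 were called up and 1 down (median 1.19), beside the same shares over all genes. Ptger3, a receptor for prostaglandin E2, went from 0.130 and 0.0722 CPM to 2.41 and 2.12 CPM, Ptges, a prostaglandin E synthase, from 73.2 and 60.3 CPM to 245 and 236 CPM, and Ptgs1, a cyclooxygenase, rose by 1.499 on the log2 scale. Ptgr2, a prostaglandin reductase, fell by 1.22. The macrophage marker genes given above were higher in the same MOF cKO libraries as Ptger3, Ptges and Ptgs1, and their part was not tested.

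Of 16 genes of steroid synthesis and reception tested in MOF cKO, 1 was called down, the peroxisomal enzyme Hsd17b4 (log2 fold change -1.30 ± 0.119, adjusted p = 0.000556, edgeR's quasi-likelihood test), and 0 were called up. Of 8 polyol and osmolyte genes tested, 1 was called down, the ketohexokinase Khk (-1.39 ± 0.222, adjusted p = 0.00321, same test), and 0 were called up. Of these 8, 4 had a positive and 4 a negative log2 fold change. Slc38a2 (0.547) and Hk2 (0.50) had adjusted p of 0.00499 and 0.00893 in the same test but stayed under the fold threshold. For both lists the shares over all genes were 10.0% called up and 9.59% down. In Kansl1 cKO 0 genes were called by edgeR or by DESeq2 in the aldehyde and carbonyl list (30 tested), the prostaglandin list (13 tested), the steroid list (19 tested) and the polyol list (8 tested), and at an unadjusted p under 0.05 there were 7, 2, 2 and 1, with median log2 fold changes of -0.19, 0.16, 0.11 and -0.15. Over all genes in Kansl1 cKO the shares called were 0% for edgeR and 0.202% up and 0.317% down for DESeq2. An unadjusted p under 0.05 was found for 2045 of the 13031 genes tested.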

How the data were processed

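Polyadenylated RNA of 8 libraries was sequenced as 150-base pairs after directional library preparation. The authors aligned the reads to mm10 and deposited the raw count of reads per gene from HTSeq. Their methods name HISAT2 2.1.0 and the submitters' processing notes list TopHat2. The annotation and the strand setting of counting are not given in the sources used here. Entries that name no gene took 21.1% to 26.0% of each library's reads and were set aside.

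Counts were tested in R 4.3.3 with edgeR 4.0.16 (filterByExpr, TMM, quasi-likelihood test, Benjamini-Hochberg adjustment over all genes tested), each experiment alone, with genotype as the only term. Calls needed an adjusted p under 0.01 and a fold change over 1.5. Standard errors are the absolute log2 fold change divided by the root of F. Fits were tested on simulated data. Alternatives were DESeq2 1.42.0, other scalings, no filter, a replicate block, a joint fit of both experiments, other thresholds and each library left out. With 2 libraries a group the spread is shared across genes.

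The members, the lists and the rule for naming genes were chosen with earlier results of these data known. The rule named all 7 members, the other family genes, Nfe2l2 and Keap1, at most 4 called genes per list (largest change first), the 2 genes most like each member tested in both experiments, and tested neighbours within 500 kb. Nqo1, named as an uncalled target, and Tyrobp, the macrophage marker at 0, were named after their values were seen. So were Abcc4, Ugdh and Taldo1, the NRF2 targets called down, and the untested neighbour Marcksl1-ps4. Coordinates, exon lengths and shared stretches came from GENCODE M21, in which 92.9% of the 23432 symbols were found, and sequences from GENCODE M21 and RefSeq (GRCm38.p6). RefSeq held a promoter for 17 of the 20 family genes searched.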

Additional observations from a re-analysis of the deposited data

How the results depend on the processing

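All 8 tested fold changes of members kept their direction under DESeq2, other scalings, no filter, the replicate block, a joint fit of both experiments and other thresholds. With 1 library left out the exception was Akr1c14, which ranged from -2.06 to 0.0306 (the latter without P0.5 control replicate 2). Scaling by library size alone moved the median of all genes in MOF cKO from -0.02 to -0.32, and the calls from 1395 up and 1338 down to 769 and 2743. The causes of the changes below were not tested, beyond fewer libraries in a fit and a looser threshold.

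In MOF cKO 1 member (Akr1b8) was called up and 1 (Akr1e1) down, against 0 and 0, under DESeq2, no filter, the replicate block and an adjusted p threshold of 0.05. The calls in other lists became 11 aldehyde and carbonyl, 7 prostaglandin and 3 polyol genes under DESeq2. No filter and the replicate block each gave 11 aldehyde and carbonyl and 3 polyol genes, library size alone 3 steroid and 3 polyol genes, and the threshold of 0.05 gave 12 aldehyde and carbonyl, 3 steroid and 3 polyol genes. With 1 library left out, members called down ranged from 0 to 1 (Akr1e1, without MOF cKO replicate 2), prostaglandin genes from 2 (without MOF cKO replicate 2) to 6 (without replicate 1) and polyol genes from 1 to 4 (without MOF cKO replicate 2).

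In Kansl1 cKO 1 member was called up (Akr1c18) and 1 down (Akr1e1) under DESeq2. No filter gave 1 up and 2 down, and 1 call each among NRF2 targets, aldehyde and carbonyl enzymes and prostaglandin genes. With 1 library left out the members called ranged from 0 to 1 in each direction (Akr1c18 and Akr1e1, without either Kansl1 cKO library), NRF2 targets from 0 to 2 (without Kansl1 cKO replicate 2) and steroid genes from 0 to 1 (without Kansl1 cKO replicate 1). NRF2 target calls in MOF cKO stayed between 9 and 13 under every alternative.

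Directions that turned were all of genes not called. Akr7a5 in MOF cKO was -0.19 with library size alone, and Akr1a1 in Kansl1 cKO was -0.0343 with library size alone and -0.0332 with upper-quartile factors. With 1 library left out, MOF cKO gave Kcnab2 from -0.77 to 0.0163 and Kcnab3 from -2.06 to 0.0318. Kansl1 cKO gave Akr1a1 from -0.0238 to 0.0286, Akr1d1 from -0.19 to 0.0748, Akr1b10 from -0.49 to 0.0041, Kcnab2 from -0.32 to 1.10, Kcnab3 from -0.96 to 0.27 and Keap1 from -0.0579 to 0.406.

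Replicate numbers are shared by the groups, and controls were littermates, but no source ties a number to a litter. Same-numbered libraries deviated together at E16.5 (r = 0.206 over genes) and in opposite directions at P0.5 (r = -0.202). The replicate block raised all calls in MOF cKO to 1903 up and 2263 down and left 0 and 0 in Kansl1 cKO. With the numbers of the Kansl1 cKO libraries crossed, an alternative chosen after seeing the data, 0 genes were called up and 1 down. Using the longest transcript in place of all exons left the order of the members within each group as given. Depth limits Akr1c12, Akr1c13 and Akr1c14, whose levels lay at a few counts in most libraries.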
